A study of Mus musculus with 93 samples.

Results

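DNA methylation and demethylation enzymes were followed in cardiac progenitor cells of the mouse, as read counts of 9 genes out of 24514 in the table. The 9 were taken by name and not by a cutoff on their values, with earlier results of these data known. All of them were found. They are the maintenance methyltransferase Dnmt1 with its recruiting partner Uhrf1, the de novo methyltransferases Dnmt3a and Dnmt3b, their catalytically inactive cofactor Dnmt3l, the dioxygenases Tet1, Tet2 and Tet3, and the glycosylase Tdg.

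Each library was made from 10 cells sorted into a well. GFP+ cells express GFP under Hcn4 and stand for the first heart field (FHF), and RFP+ cells carry the Ai9 label that Tbx1-Cre leaves in a cell and all of its descendants, which stands for the second heart field (SHF). Cells came either from Hcn4-GFP; Tbx1-Cre; Ai9 embryos (in vivo), collected at E7.75 by the protocol and named 8.5 in the titles, or from spheroids at day 5.5 of differentiation (in vitro), grown from 1 embryonic stem cell line with the same 3 alleles. That line was kept either with the inhibitors CHIR99021 and PD98059 or with LIF before spheroids were made. There were 5 in vivo GFP+, 4 in vivo RFP+, 38 in vitro GFP+ and 46 in vitro RFP+ libraries. Wells are not assigned to embryos or to differentiations, so n counts wells, and p-values measure the spread between these libraries, which may be technical.

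DNA methylation at CpG sites is copied after replication and otherwise lost by dilution. Uhrf1 binds hemimethylated DNA behind the replication fork and brings Dnmt1 there, which methylates the new strand. Dnmt3a and Dnmt3b write methylation on DNA that had none, and Dnmt3l stimulates them in germ cells and pluripotent cells. Tet enzymes oxidise methylcytosine, and Tdg excises the more oxidised forms so that base excision repair can put back an unmodified cytosine. In the embryo, Dnmt3b is known for high expression around implantation and gastrulation, with Dnmt3a becoming the more prominent de novo enzyme as tissues differentiate.

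In the GENCODE M21 annotation of GRCm38, the genome assembly also called mm10, Dnmt1 lies at chr9:20907209-20959888, Uhrf1 at chr17:56303321-56323486, Dnmt3a at chr12:3806007-3914443, Dnmt3b at chr2:153649450-153687730 and Dnmt3l at chr10:78041947-78063622. Tet1 lies at chr10:62804570-62908996, Tet2 at chr3:133463679-133545139, Tet3 at chr6:83362373-83459084 and Tdg at chr10:82629828-82650799. Sequence that members share with other genes limits their counts. Of the 36-base windows in Tdg transcripts, 46.02% also occur in another gene, above all in processed pseudogenes, against 21.5% for Uhrf1, 12.4% for Dnmt3b (all shared with Dnmt3c) and at most 1.35% for the other members. Dnmt3a also overlaps the antisense gene Dnmt3aos, and no strand setting of the counting is given in the sources used here.

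The 250 bases before each RefSeq transcription start (GRCm38.p6) were searched on both strands for 4 words of the E2F site, TTTCCCGC, TTTGGCGC, TTTCGCGC and TTTGCCGC, since E2F factors drive genes of DNA replication. One of the words was present in 611 of 32851 such windows, or 1.86%. Among the members, one was found in 1 of 3 windows of Dnmt1 and 1 of 2 windows of Uhrf1, and in none of the windows of the other 7. These windows of Dnmt1 and Uhrf1 hold 26 and 30 CpG, against a median of 6 over all windows. The word found, TTTCGCGC, itself holds CpG. The share of windows as rich in CpG that carry a word was not counted, so 1.86% is no fair background for them. The stretches that hold the word are printed on the gene's strand, with the word in capitals. The Dnmt1 stretch (chr9:20952824-20952853, minus strand) carries it in reverse complement, with its first base 219 bases before the start. The 250-base window that holds this stretch overlaps an exon of Dnmt1. Whether the stretch itself does was not looked up. The Uhrf1 stretch (chr17:56304117-56304146, plus strand) carries it in forward orientation, 185 bases before the start. A word match describes these letters and is not a binding site.
Dnmt1: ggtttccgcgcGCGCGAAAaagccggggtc
Uhrf1: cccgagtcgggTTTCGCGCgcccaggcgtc

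Total counts per library ran from 712732 to 2525460 in vivo and from 445071 to 5658882 in vitro, with 1 exception. The in vitro GFP+ library of well C9 holds 6288 counts, against at least 828193 in every other in vitro GFP+ library, and it was kept unless stated otherwise. In vivo GFP+ libraries contained 6189 to 8302 detected genes and in vivo RFP+ libraries 10263 to 13052. By the well names, in vitro RFP+ wells sat in columns 1 to 6 and in vitro GFP+ wells in columns 7 to 11, and the effects of column and population therefore cannot be told apart in vitro. In vivo wells were named in columns 11 and 12, and column 11 held in vivo RFP+ and in vitro GFP+ wells. Mean Hcn4 was 14.9 ± 16.7 CPM (SD, n = 5) in in vivo GFP+ and 0.358 ± 0.716 CPM (n = 4) in in vivo RFP+ libraries, and 7.36 ± 4.46 CPM (n = 38) and 0.445 ± 0.666 CPM (n = 46) in vitro, where 18 of 46 RFP+ wells held reads. Tbx1 was at 0 in all 5 in vivo GFP+ and at 3.94 ± 3.53 CPM in in vivo RFP+ libraries, and had reads in 2 of 38 GFP+ and 41 of 46 RFP+ wells in vitro. The summed level of 12 cardiomyocyte markers, 19115 to 55884 CPM in in vivo GFP+ libraries, was 23.2 to 1454 CPM in in vitro GFP+ wells without C9. CPM are counts per 1000000 counts of the library, after TMM scaling of the library totals.

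**Figure D1:**
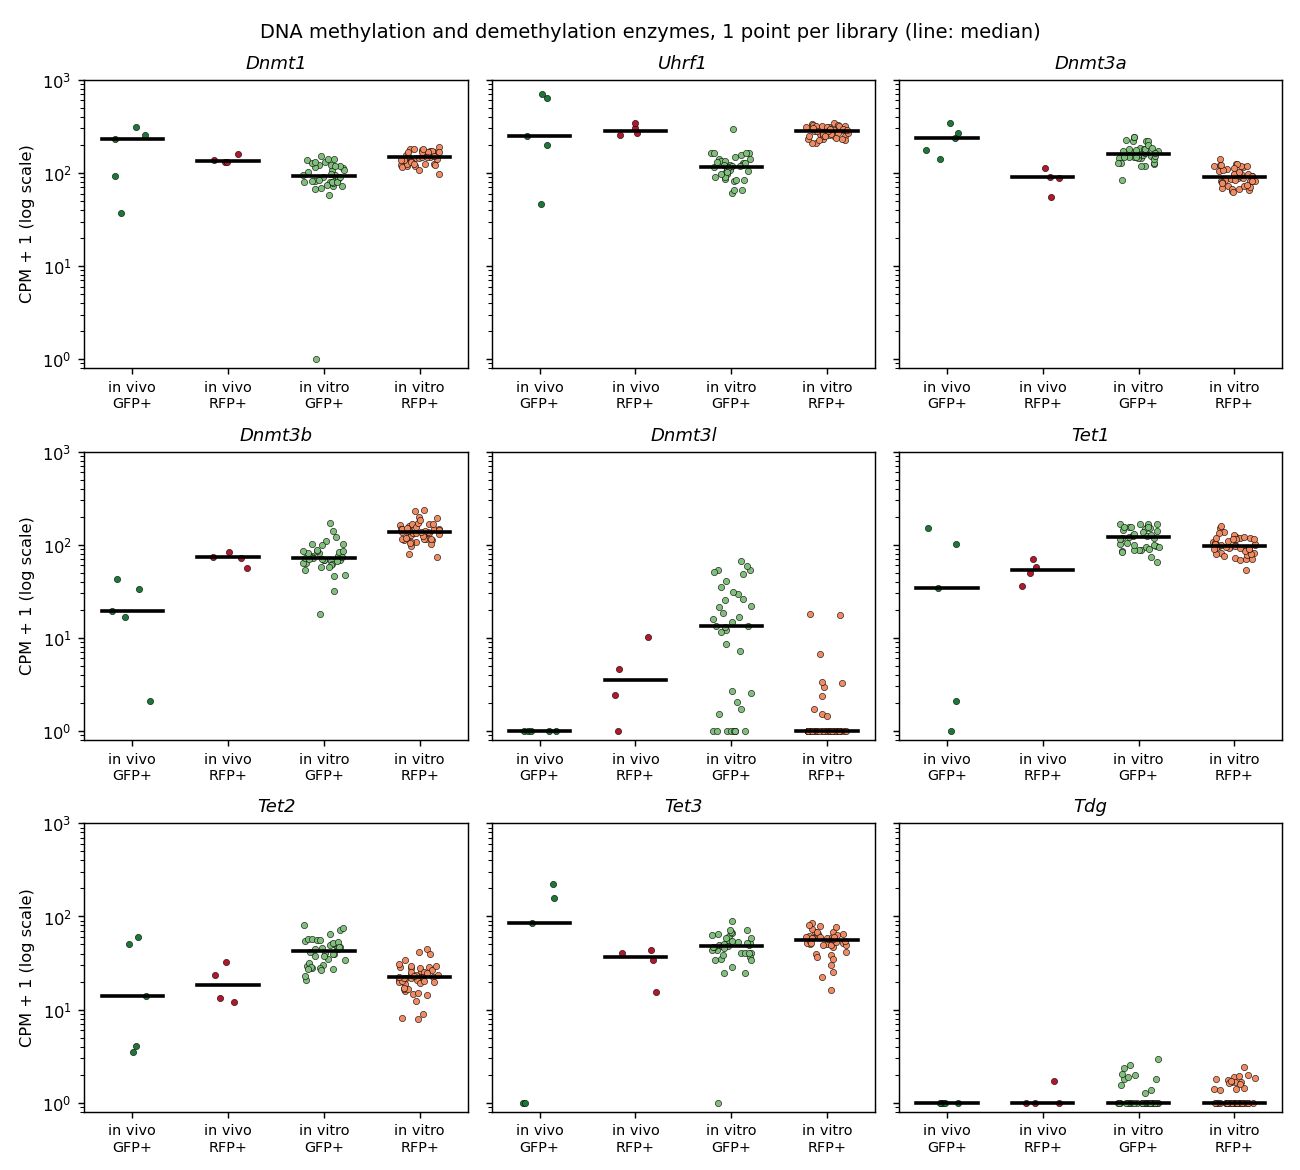
CPM + 1 on a log axis for each of the 9 genes, with 1 point per library and a line at the median of each of the 4 groups. In vivo RFP+ points lie close together for Dnmt1 (129 to 158 CPM), while in vivo GFP+ points spread from 35.9 to 311 CPM; the lone in vitro GFP+ points at 0 CPM of Dnmt1 and Tet3 are the library of 6288 counts.

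Per kilobase of exon, mean Uhrf1 was the highest of the 9 in every group. It was at 85.5 ± 67.2 CPM per kb in vivo GFP+ (SD, n = 5) and 67.9 ± 9.15 in vivo RFP+ (n = 4). In vitro it was at 28.0 ± 9.51 in GFP+ (n = 38) and 65.3 ± 8.30 in RFP+ (n = 46). Exon length covers the exons of all annotated transcripts of a gene, each base once. The order of means did not hold in every library, as in vivo GFP+ well C12 had 45.9 CPM of Uhrf1 (4.26 kb) and 257 CPM of Dnmt1 (7.38 kb). Second place differed between groups. It was held by Dnmt1 in vivo, at 25.0 ± 15.8 CPM per kb in GFP+ and 18.8 ± 1.80 in RFP+ cells. In vitro it was held by Dnmt3b, at 14.8 ± 5.39 CPM per kb in GFP+ and 27.1 ± 6.57 in RFP+ cells. In in vitro GFP+ cells, Dnmt3b, Dnmt1 (13.0 ± 3.95 CPM per kb) and Dnmt3a (9.85 ± 2.17) followed each other, each differing from the next by less than the SD of the higher one. Of the dioxygenases, Tet1 led per kilobase in every group but in vivo GFP+, where Tet3 stood at 5.57 ± 5.89 and Tet1 at 3.72 ± 4.31 CPM per kb, values that do not differ beyond their spread. Tet2 was the lowest dioxygenase in all 4 groups, between 1.15 and 2.53 CPM per kb. These are levels over pools of cells, in which fewer expressing cells and less RNA per cell cannot be told apart.

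The first comparison asks how the heart fields differ in these enzymes in the embryo. Dnmt3a was lower in RFP+ than in GFP+ cells. Its values were 174, 139, 269, 234 and 344 CPM in the 5 GFP+ libraries and 90.3, 86.4, 54.0 and 112 CPM in the 4 RFP+ libraries, and the groups did not overlap. The log2 fold change was -1.49 (SE 0.46) with an adjusted p of 0.0709 in edgeR's quasi-likelihood test, and an exact two-sided permutation test gave p = 0.0159, where the smallest p possible is 0.00794. Dnmt3a was the 1 member called of 7 tested, at an adjusted p under 0.1, beside 10.1% of all genes tested. The call was lost without GFP+ library E12 (adjusted p = 0.129) and without each RFP+ library (adjusted p between 0.133 and 0.217), while the log2 fold change stayed between -1.63 and -1.30. It was also lost with no filter on low counts (adjusted p = 0.133) and when each library's trend with gene length was removed (log2 fold change -1.08, adjusted p = 0.254).

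Dnmt3b ran the other way in these libraries. It measured 1.08, 18.6, 32.2, 15.9 and 41.7 CPM in GFP+ and 72.9, 71.0, 54.9 and 81.7 CPM in RFP+ libraries. Every RFP+ library was above every GFP+ library, yet edgeR did not call the gene (log2 fold change 1.60, SE 1.10, adjusted p = 0.609), and the exact permutation test of this gene alone gave p = 0.0238. Within a library, the log2 ratio of Dnmt3b to Dnmt3a counts lay between -6.76 and -2.89 in the 5 GFP+ libraries and between -0.45 and 0.02 in the 4 RFP+ libraries. These ratios need no scaling between libraries, and their ranges did not overlap. They were not corrected for exon length, so a ratio of 0 is not equal expression. How many of all genes separate the groups in this way was not counted, for Dnmt3a and Dnmt3b as for their ratio. In vivo GFP+ libraries held fewer detected genes (6189 to 8302) than in vivo RFP+ libraries (10263 to 13052). Markers of other cells moved with the populations in vivo. Summed over 12 cardiomyocyte markers, RFP+ libraries held 1261 to 2399 CPM against 19115 to 55884 CPM in GFP+ libraries. Over 10 endothelium markers, they held 232 to 623 CPM against 3.23 to 94.7 CPM, with Pecam1, Cdh5, Tie1, Emcn, Sox7 and Sox18 at 0 in GFP+ libraries. Blood markers reached 1158 CPM in 1 RFP+ library, with a median of 0.703 CPM over the 4. The part of these cells in the member values was not tested.

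The maintenance pair showed no difference that could be detected at this spread. Dnmt1 was at 90.4, 35.9, 257, 311 and 230 CPM in GFP+ libraries and at 130, 129, 138 and 158 CPM in RFP+ libraries. The RFP+ values sat inside the GFP+ range (log2 fold change -0.47, SE 0.58, adjusted p = 0.859 in edgeR). Uhrf1 was at 630, 199, 45.9, 702 and 245 CPM in GFP+ and at 302, 252, 339 and 266 CPM in RFP+ libraries (log2 fold change -0.35, SE 0.57, adjusted p = 0.908 in edgeR).

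Tet1 and Tet3, which share the CXXC type of DNA-binding domain, were each at or near 0 in 2 of the 5 in vivo GFP+ libraries. Tet1 was at 1.08, 0, 151, 33.6 and 102 CPM in wells A12, B12, C12, D12 and E12. Tet3, in the same order, was at 224, 83.5, 0, 0 and 157 CPM. Both wells without Tet3 reads thus held Tet1, and both wells with 0 or 1 Tet1 counts held Tet3. Well E12 held both genes. Over 5 libraries of 10 cells, this pattern was not tested against transcripts missed by chance. In the 4 RFP+ libraries, Tet1 kept to 34.6 to 68.8 CPM and Tet3 to 14.4 to 42.3 CPM. For Tet1, Tet2 and Tet3 the log2 fold changes of -0.24 (SE 1.42), -0.44 (SE 1.35) and -1.56 (SE 1.53) did not pass the test (adjusted p of 0.986, 0.965 and 0.786 in edgeR). Dnmt3l had no reads in any of the 5 GFP+ libraries, a count that allows up to 3 per library or 2.57 CPM on average, and 3.64, 0, 9.29 and 1.43 CPM in the 4 RFP+ libraries. It was too low to pass the filter on counts; with no filter edgeR called it higher in RFP+ cells (adjusted p = 0.0898) and DESeq2 did not (adjusted p = 0.260). Its mean of 3.59 CPM in RFP+ libraries was at least 1.40-fold higher than the level that 3 counts per GFP+ library allow.

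**Figure D2:**
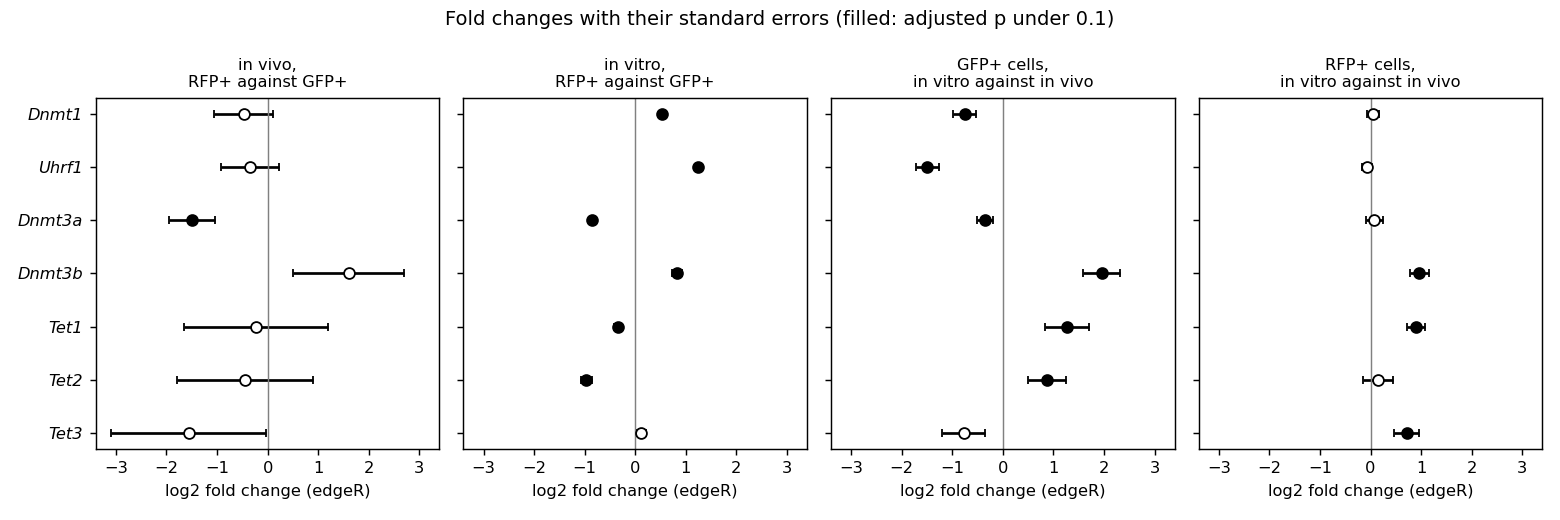
Log2 fold changes from edgeR of the 7 members tested in all 4 comparisons, with bars of 1 standard error and filled points at an adjusted p under 0.1. In vivo bars are wide and 1 point is filled; in vitro, Uhrf1 (1.25) and Tet2 (-0.97) lie at the far ends.

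In vitro, where the same question was put to spheroid cells, the maintenance genes and Dnmt3b rose in RFP+ cells and Dnmt3a, Tet1 and Tet2 fell. Of 7 members tested, 6 passed, 3 in each direction, beside 77.9% of all genes tested, so the count itself is near the background. Uhrf1 had the largest change of the 7. It ran from 59.8 to 164 CPM with a median of 115 in the 37 GFP+ wells without C9, and from 206 to 341 CPM with a median of 283 in the 46 RFP+ wells. No well of one population reached the range of the other, and how many of all genes separate in this way was not counted. The log2 fold change over all wells was 1.25 (SE 0.06, adjusted p = 2.48e-34 in edgeR). Well C9 gave 293 CPM, from 4 counts.

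Dnmt1 rose with it, but less. Its lowest, median and highest values were 56.6, 94.2 and 152 CPM in the 37 GFP+ wells and 96.5, 146 and 189 CPM in RFP+ wells, with a log2 fold change of 0.53 (SE 0.06, adjusted p = 2.54e-12 in edgeR). Of the GFP+ wells, 20 lay below every RFP+ well, and 18 RFP+ wells lay above every GFP+ well. By plate column, median Dnmt1 was between 79.4 and 119 CPM over the 5 GFP+ columns and between 126 and 165 CPM over the 6 RFP+ columns. Uhrf1 column medians were between 91.8 and 129 CPM and between 247 and 307 CPM. No column held in vitro wells of both populations, so no value within a column can be given.

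Genes of S phase moved with the pair. All 18 genes of an S phase list, which holds no member, were higher in in vitro RFP+ cells (median log2 fold change 0.89, against -0.02 over all genes), as were 15 of 16 genes of G2 and M phase, beside 37.8% of all genes called higher. Their summed level was 2002 to 3227 CPM in GFP+ wells without C9 and 4321 to 5807 CPM in RFP+ wells. Inside the GFP+ wells, Uhrf1 followed a score of the 18 genes (mean z of log2 CPM; Pearson r = 0.82 and Spearman rho = 0.82 over 37 wells, and r = 0.78 without the 2 farthest wells). Inside the RFP+ wells it did not (r = -0.06 and rho = -0.06 over 46 wells). For Dnmt1 the values were r = 0.47 and rho = 0.46 in GFP+ and r = 0.01 and rho = -0.01 in RFP+ wells. Dnmt1 and Uhrf1 with each other gave r = 0.45 and rho = 0.46 in GFP+ and r = 0.29 and rho = 0.30 in RFP+ wells. Points of one well share library, depth and scaling. Uhrf1 itself correlated with log2 total count at r = 0.14 in GFP+ and 0.04 in RFP+ wells. The part of S phase genes in the Uhrf1 difference was not tested.

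**Figure D3:**
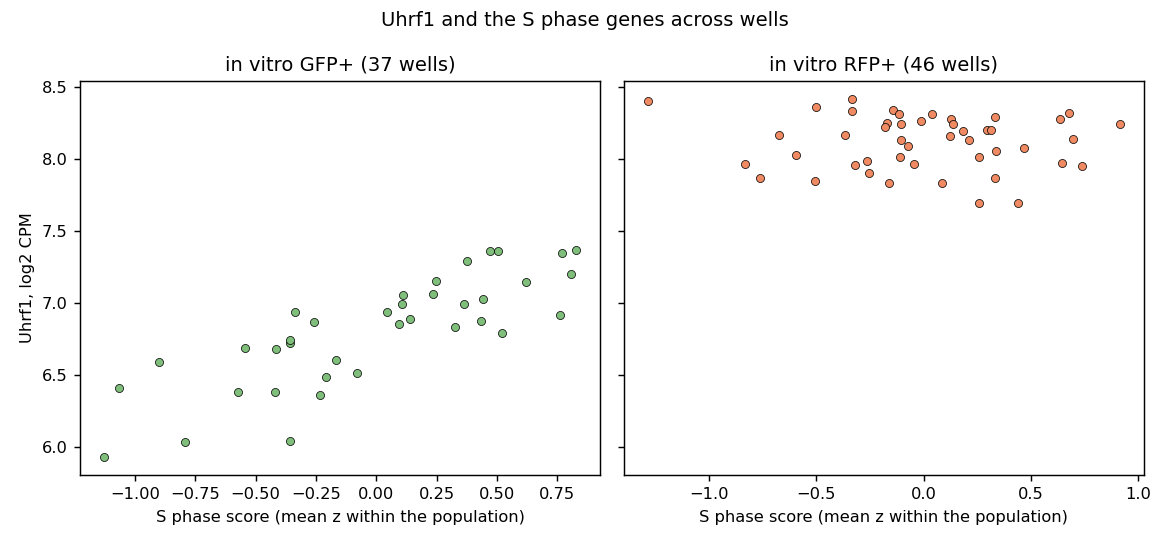
Log2 CPM of Uhrf1 against the S phase score (mean z within each population) for the 37 in vitro GFP+ wells without C9, left, and the 46 in vitro RFP+ wells, right, with 1 point per well. Points rise together on the left (r = 0.82) and show little relation on the right (r = -0.06), and all RFP+ wells lie above all GFP+ wells.

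The de novo enzymes separated the populations in vitro in the same directions as the in vivo values. Dnmt3a had lowest, median and highest values of 82.7, 156 and 241 CPM in GFP+ wells without C9 and 61.1, 90.3 and 141 CPM in RFP+ wells, and fell by 0.86 on the log2 scale (SE 0.07, adjusted p = 3.68e-21 in edgeR). Dnmt3b had 17.1, 70.0 and 171 CPM in GFP+ and 73.0, 135 and 233 CPM in RFP+ wells, and rose by 0.83 (SE 0.09, adjusted p = 1.20e-13 in edgeR). Both overlapped: 29 of 37 GFP+ wells exceeded every RFP+ well in Dnmt3a, and 21 of 37 were below every RFP+ well in Dnmt3b. The log2 ratio of Dnmt3b to Dnmt3a counts had a mean of -1.16 ± 0.62 (SD, n = 37) in GFP+ wells, none of them above 0. In RFP+ wells it was 0.58 ± 0.47 (SD, n = 46), with Dnmt3b counts above Dnmt3a counts in 40 of 46. Counts were not divided by exon length, 16.6 kb for Dnmt3a and 5.11 kb for Dnmt3b, so a ratio of 0 is not equal expression. Per kilobase, mean Dnmt3b was above Dnmt3a in vitro, at 14.8 against 9.85 CPM per kb in GFP+ and 27.1 against 5.52 in RFP+ cells. In vivo the values were 4.29 against 14.0 in GFP+ and 13.7 against 5.15 in RFP+ cells.

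**Figure D4:**
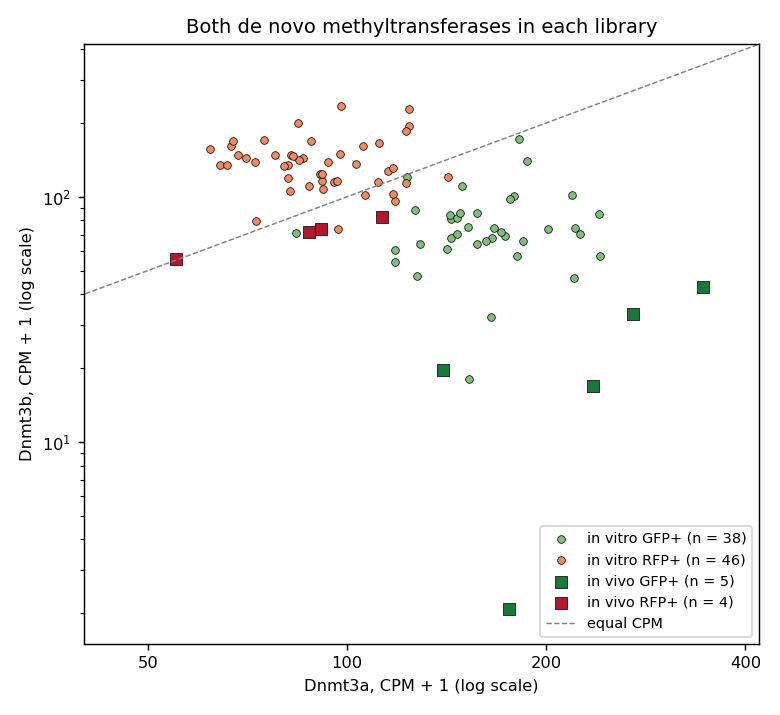
Dnmt3b against Dnmt3a, both as CPM + 1 on log axes, with 1 point per library. Squares are the 9 in vivo and circles the 84 in vitro libraries. The dashed line marks equal CPM, which is not equal expression since Dnmt3a has more exon sequence. In vivo GFP+ squares lie to the lower right and in vivo RFP+ squares at or near the line, and 40 of 46 in vitro RFP+ wells have more Dnmt3b than Dnmt3a counts.

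Tet2, the dioxygenase that lacks a CXXC domain of its own, fell in in vitro RFP+ cells, from a median of 40.3 CPM (20.0 to 80.8) in 37 GFP+ wells to 21.2 CPM (6.95 to 43.4) in RFP+ wells. The log2 fold change was -0.97 (SE 0.11, adjusted p = 2.95e-13 in edgeR). Tet1 fell by 0.35 (SE 0.07, adjusted p = 1.05e-05 in edgeR), with medians of 123 and 95.4 CPM and wide overlap. Tet3 did not pass, at medians of 47.6 and 55.2 CPM (log2 fold change 0.11, SE 0.09, adjusted p = 0.274). Both of the last results changed sides of the threshold with gene length: with the length trend of each library removed, Tet1 was at -0.08 (adjusted p = 0.293) and Tet3 at 0.39 (adjusted p = 9.53e-05).

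Dnmt3l varied widely between in vitro GFP+ wells and had no reads in most RFP+ wells. In in vitro GFP+ cells it had reads in 30 of 38 wells, from 0 to 65.6 CPM with a median of 12.4 CPM. In RFP+ cells it had reads in 10 of 46 wells, from 0 to 17.0 CPM with a median of 0. Of the 37 GFP+ wells without C9, 15 exceeded every RFP+ well. It missed the count filter of the edgeR test, and the permutation test of its mean log2 CPM gave p = 1e-05, the smallest that 100000 resamples can give. With no filter, edgeR gave a log2 fold change of -3.89 (SE 0.48, adjusted p = 8.82e-12). The mean level in GFP+ wells, 18.1 CPM, was at least 7.03-fold higher than the floor of 3 counts per library for the in vivo GFP+ libraries, none of which had a read.

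Tdg was near 0 throughout, with 43 reads in all 93 libraries. Reads fell in 0 of 5 in vivo GFP+, 1 of 4 in vivo RFP+, 11 of 38 in vitro GFP+ and 17 of 46 in vitro RFP+ libraries, with at most 4 reads in any of them. Its level was not more than 1.97 CPM. Since 46.02% of its 36-base windows recur in other genes and the handling of reads with several matches is not given in the sources used here, this low count does not measure how much Tdg transcript was there. Gm9855, the Tdg pseudogene in the table, had 0 reads in all 93 libraries.

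Other cells' markers moved with the populations too. Summed over 10 endoderm markers, in vitro GFP+ wells without C9 held 1858 to 6655 CPM and RFP+ wells 84.9 to 1098 CPM. For 16 pluripotency markers, the ranges were 146 to 1995 CPM and 17.9 to 712 CPM, with none of the 16 at 0 in either. In vivo the same list summed to 0 to 492 CPM in GFP+ libraries (median 224) and to 1.69 to 98.4 CPM in RFP+ libraries (median 28.2), with 11 and 6 of the 16 genes at 0; Pou5f1, Zfp42, Dppa4, Dppa2, Utf1 and Lefty1 had no reads in either. The part of these cells in the member differences was not tested. Across wells of one population, Dnmt3b and Dnmt3a were only weakly related to the pluripotency score (Spearman rho of 0.07 and 0.04 in 37 GFP+ wells, 0.14 and 0.21 in 46 RFP+ wells), and Tet1 gave 0.18 and 0.39 (Pearson r of 0.19 and 0.31, the latter 0.14 without the 2 farthest wells). Against the cardiomyocyte score, Dnmt3b gave 0.29 and 0.13, Dnmt3a -0.17 and -0.12, and Tet1 -0.06 and -0.07.

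Spheroid cells were then compared with their embryonic counterparts. These 2 comparisons share their libraries with those above, so their values are given side by side with them. In RFP+ cells, Dnmt3b, Tet1 and Tet3 were higher in vitro. Dnmt3b had lowest, median and highest values of 73.0, 135 and 233 CPM in 46 in vitro wells against 54.9 to 81.7 CPM in 4 in vivo libraries, and 44 of 46 wells lay above all 4. Its log2 fold change was 0.96 (SE 0.19, adjusted p = 3.52e-05 in edgeR). Tet1 followed, at a median of 95.4 CPM (52.2 to 158) against 34.6 to 68.8 CPM (log2 fold change 0.90, SE 0.18, adjusted p = 9.18e-05 in edgeR). Tet3 rose by 0.72 (SE 0.25, adjusted p = 0.0205 in edgeR), a call lost without in vivo library G12 (0.49, adjusted p = 0.168), with the length trend removed (0.47, adjusted p = 0.118) and with group weights in limma (0.67, adjusted p = 0.427). With 3 of 7 tested members called, the background was 42.6%. Cardiomyocyte markers summed to 1261 to 2399 CPM in vivo and to 19.9 to 145 CPM in vitro, and endothelium markers to 232 to 623 CPM (median 250) in vivo and to 6.84 to 262 CPM (median 53.4) in vitro, and their part in the member values was not tested.

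The other members of RFP+ cells differed little between spheroid and embryo. Dnmt1 changed by 0.06 (SE 0.12), Uhrf1 by -0.07 (SE 0.10), Dnmt3a by 0.08 (SE 0.16) and Tet2 by 0.15 (SE 0.29) on the log2 scale, and none passed the test (adjusted p between 0.599 and 0.748 in edgeR). Among the 46 wells, 16 lay above and 14 below all 4 in vivo values of Dnmt1. Dnmt3l had reads in 3 of 4 in vivo and 10 of 46 in vitro libraries, at means of 3.59 ± 4.08 CPM (SD, n = 4) and 1.06 ± 3.53 CPM (SD, n = 46).

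In GFP+ cells the gap between spheroid and embryo was wider. Uhrf1 and Dnmt1 were lower in vitro and Dnmt3b, Tet1 and Tet2 higher, against a median log2 fold change of 0.67 over all genes with TMM scaling and of 0.22 with DESeq2's size factors. Of 8 members tested 7 passed, beside 68.0% of all genes tested. One of the 7 was Dnmt3l, with no reads in vivo, which passed the count filter only through the in vitro wells where it is high. Its call therefore adds no support of its own (log2 fold change 8.10, SE 2.04, adjusted p = 0.000641 in edgeR). Group weights in limma gave Dnmt3l an adjusted p of 0.674. Uhrf1 changed by -1.50 (SE 0.23, adjusted p = 2.26e-07 in edgeR). Of the 5 in vivo libraries, 4 lay above all 37 in vitro wells without C9, and in vivo library C12 (45.9 CPM) lay below all of them. Dnmt1 changed by -0.75 (SE 0.23, adjusted p = 0.00398 in edgeR), with a permutation p of 0.132 over 962598 exact arrangements. Dnmt3b changed by 1.96 (SE 0.37, adjusted p = 1.05e-05 in edgeR), with 35 of 37 wells above the highest in vivo value of 41.7 CPM and an exact permutation p of 3.53e-05.

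Tet1 rose by 1.27 (SE 0.43, adjusted p = 0.00919 in edgeR) and Tet2 by 0.87 (SE 0.38, adjusted p = 0.0411). Both calls were lost with DESeq2's size factors (0.68 with adjusted p = 0.162, and 0.40 with adjusted p = 0.350), as Tet2 was without in vivo library A12, B12 or C12 (adjusted p between 0.152 and 0.173). Dnmt3a was at -0.35 (SE 0.17, adjusted p = 0.0601), a call lost without library C12 (adjusted p = 0.106) or E12 (adjusted p = 0.265). Tet3 missed the threshold at -0.78 (SE 0.42, adjusted p = 0.104) and passed it with DESeq2's size factors (-1.24, adjusted p = 0.00732). When each group was given its own weight in limma, only Uhrf1 and Tet1 of these members passed. Of all genes tested, 48.3% were called higher and 19.7% lower in vitro. Cardiomyocyte markers moved with this comparison, 11 of 11 tested being lower in vitro. S phase genes summed to 3460 to 5298 CPM in vivo and to 2002 to 3227 CPM in vitro without C9, with no overlap, and 10 of 18 were called lower and 3 higher. The 10 endoderm markers summed to 288 to 490 CPM in vivo, with 7 of them at 0 (Sox17, Foxa2, Foxa1, Afp, Ttr, Cdh1 and Epcam), and to 1858 to 6655 CPM in vitro. The part of these genes in the member values was not tested.

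Whether the RFP+ against GFP+ change itself differed between spheroid and embryo was tested by dividing the difference of both log2 fold changes by the root of their summed squared standard errors. None of the 7 members tested passed, beside 5.26% of 8182 genes, with 1 at an unadjusted p under 0.05. That 1 was Uhrf1, with a difference of 1.60 (SE 0.57, p = 0.0267, adjusted p = 0.285), and it passed without in vivo GFP+ library C12 (1.88, adjusted p = 0.0439). For Dnmt3a the difference was 0.64 (SE 0.46, adjusted p = 0.753) and for Dnmt3b -0.78 (SE 1.10, adjusted p = 0.920). A joint edgeR fit with 1 spread for all groups called 6 of 8 members, among 6889 of 12655 genes.

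The wider pathway, in 5 lists, was read beside the members. In vitro, 37.8% of all genes were called higher and 40.1% lower in RFP+ cells. Among cofactors of maintenance methylation, 5 of 8 tested were higher and 1 lower (median log2 fold change 0.63). Trim28, a corepressor that recruits silencing to imprinted regions and retrotransposons, rose by 0.90 (SE 0.05, adjusted p = 4.64e-34 in edgeR) in vitro. In vivo it rose by 1.31 (SE 0.34, adjusted p = 0.0303), from 133 to 411 CPM in GFP+ libraries to 452 to 734 CPM in RFP+ libraries, and was the 1 of 8 called. Pcna, the clamp of the replication fork, rose by 0.78 (SE 0.04) and Lig1, a ligase of Okazaki fragments that Uhrf1 binds, by 1.04 (SE 0.05) in vitro. In vivo their log2 fold changes were 0.73 (adjusted p = 0.229) and 0.31 (adjusted p = 0.883).

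Of the repair genes that follow cytosine oxidation or deamination, 6 of 12 tested were higher and 6 lower in in vitro RFP+ cells, and 1 of 10 was higher in vivo. Apex1, the endonuclease that cuts at the abasic site left by Tdg, rose by 0.79 (SE 0.04, adjusted p = 1.08e-37 in edgeR) in vitro and by 1.17 (SE 0.26, adjusted p = 0.0125) in vivo. Gadd45g, a stress-inducible gene tied to active demethylation, fell by 2.95 (SE 0.18, adjusted p = 2.39e-28 in edgeR) in vitro, from 92.9 ± 33.9 CPM (SD, n = 38) to 12.4 ± 8.87 CPM (SD, n = 46). In vivo it stood at 18.5 ± 15.8 CPM (SD, n = 5) and 24.6 ± 18.5 CPM (SD, n = 4) and did not pass (adjusted p = 0.975). Neil3, a glycosylase, rose by 1.00 (SE 0.14) in vitro. In vivo it was at 1.87 ± 4.18 CPM (SD, n = 5) in GFP+ and 27.5 ± 19.7 CPM (SD, n = 4) in RFP+ cells and did not pass (adjusted p = 0.389 in edgeR).

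Readers of methylated CpG split, with 2 of 6 tested higher and 4 lower in vitro (median -0.43) and 1 of 5 higher in vivo. Zbtb38 fell by 2.59 (SE 0.23, adjusted p = 8.14e-19 in edgeR) in vitro. Mbd3, a subunit of the NuRD complex, rose by 0.98 (SE 0.09, adjusted p = 1.47e-16) in vitro and had 2.38 (SE 1.47, adjusted p = 0.538) in vivo. Zbtb33, or Kaiso, was the 1 called in vivo (adjusted p = 0.0155 in edgeR), at no more than 0.934 CPM in GFP+ and at 10.2 to 20.8 CPM in RFP+ libraries. In vitro its log2 fold change was -0.25 (SE 0.12, adjusted p = 0.0510), the opposite sign, with 30.8 ± 12.1 CPM (SD, n = 38) in GFP+ wells. In vivo GFP+ libraries held fewer detected genes (6189 to 8302) than in vivo RFP+ libraries (10263 to 13052), and the part of this in the Zbtb33 call was not tested.

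Among genes that supply methyl groups, 6 of 14 tested were higher and 5 lower in vitro. Mat2a, which makes S-adenosylmethionine, rose by 0.58 (SE 0.04, adjusted p = 5.68e-22 in edgeR) in vitro, and had -0.66 (SE 0.26, adjusted p = 0.188) in vivo. In GFP+ cells it ran from 511 to 1269 CPM in vivo and from 147 to 435 CPM over all in vitro wells. In RFP+ cells the ranges overlapped, at 487 to 737 CPM in vivo and 403 to 659 CPM in vitro (log2 difference -0.22, SE 0.09). How many of all genes separate the GFP+ groups in this way was not counted.

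Among partners of TET and DNMT enzymes, 6 of 15 tested were higher and 3 lower in vitro (median log2 fold change 0.06), and the median of 16 tested in vivo was -0.35, against 0.09 over all genes. Ezh2, the methyltransferase of Polycomb repressive complex, rose by 0.90 (SE 0.07, adjusted p = 4.41e-23 in edgeR) and Ogt, which pairs with Tet proteins, fell by 0.51 (SE 0.04, adjusted p = 3.56e-19) in in vitro RFP+ cells. Idh1, a source of the 2-oxoglutarate that Tet enzymes consume, was at 588 ± 74.1 CPM (SD, n = 46) in in vitro and 96.2 ± 44.0 CPM (SD, n = 4) in in vivo RFP+ cells, a log2 difference of 2.59 (SE 0.15, adjusted p = 3.97e-23 in edgeR). Ehmt2, a histone H3 lysine methyltransferase, was at 8.17 ± 10.7 CPM (SD, n = 5) in in vivo GFP+ and 51.3 ± 17.8 CPM (SD, n = 38) in in vitro GFP+ cells, a rise of 2.67 (SE 0.43, adjusted p = 6.75e-07 in edgeR).

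Germline genes known to be silenced by promoter methylation in somatic cells were read in spheroid GFP+ cells and barely in the embryo. Of 18 listed, 17 were in the table. Their summed level was 270 to 1198 CPM in in vitro GFP+ wells without C9 and 2.21 to 182 CPM in in vitro RFP+ wells. It was 0 to 36.3 CPM in vivo GFP+ and 2.81 to 15.05 CPM in vivo RFP+, with 15 and 9 of the 17 genes at 0. Between the in vitro populations 11 of 11 tested were lower in RFP+ cells, with a median log2 fold change of -3.20, beside the 40.1% of all genes called lower. Sycp3, of the meiotic chromosome axis, measured 185 ± 79.6 CPM (SD, n = 38) in GFP+ and 25.9 ± 27.8 CPM (SD, n = 46) in RFP+ wells (log2 fold change -2.85, SE 0.21, adjusted p = 2.24e-22 in edgeR). Taf7l measured 75.9 ± 56.6 and 4.96 ± 8.03 CPM and Tex19.1 35.1 ± 21.7 and 4.73 ± 6.13 CPM in the same wells. In vivo, Taf7l and Tex19.1 had no reads in any of the 9 libraries. DNA methylation was not measured in these cells.

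Genes most like 4 of the members across in vitro wells were found among 10137 genes with a count in at least 90% of wells, by the mean of the Spearman rho within 37 GFP+ and within 46 RFP+ wells. Dnmt1 was nearest to Nynrin (mean rho 0.47), Brd8 (0.44) and Smarce1 (0.44). For Dnmt3a they were Gpatch2l (0.44), Pmm1 (0.44) and Prr13 (0.42), and for Dnmt3b they included Rrp1b (0.43) and L1td1 (0.42). Genes like Tet1 included Skiv2l2 (0.42) and Rarg (0.41). Each of these is among the highest of 10137 values, and taking the highest of so many gives a high rho also among unrelated genes. The level that this selection alone would reach was not computed. Wells of a population share their scaling and, by their names, may share a plate.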

How the data were processed

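RNA of 93 libraries of 10 sorted cells was sequenced. The authors used Trimmomatic 0.36 for trimming (quality of at least 35, length of at least 36), HISAT2 2.0.4 for mapping to mm10 and featureCounts 1.5.2 for counting, and the deposited values are whole read counts per gene without normalization. Strand, multiple matches and annotation are not given in the sources used here. Reads carry no molecular identifiers, so floors (3 counts) cover counting error only.

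Counts were compared with edgeR 4.0.16 in R 4.3.3 (TMM, filterByExpr with minimum count 10 and total 15, quasi-likelihood test, Benjamini-Hochberg adjustment over all genes tested), calling genes at an adjusted p under 0.1. CPM use TMM over all libraries, and log2 CPM a prior count of 2. Single-gene tests were two-sided permutation tests, 36 in all and unadjusted. The difference between sources used 7 degrees of freedom. Ratios within a library added 0.5 to each count and needed 20 counts over both genes. Fits were also run on simulated data that had the same spread in both groups, so these runs do not cover groups that differ in spread.

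Members and lists were chosen with earlier results of these data known. The named genes are the 9 members, the 2 genes of smallest p in each of the 5 pathway lists in vivo and in vitro, the 3 germline genes of highest mean CPM and the 3 genes most like Dnmt1, Dnmt3a, Dnmt3b and Tet1. Some of these genes are not reported here. Alternatives were DESeq2 1.42.0, its size factors in edgeR, total counts, no filter, limma 3.58.1 with group weights, an adjusted p under 0.05, libraries left out and near-identical wells summed. Removal of the gene length trend and plate row as a covariate were added after seeing the data. Pairs of RFP+ wells side by side in columns 3 and 4, 7 in number, were closer to each other (chi-square over expectation 1.30 to 1.73) than 1028 other pairs (2.55 to 10.8), and were kept as separate libraries.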

Additional observations from a re-analysis of the deposited data

Results flagged for a closer look

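Tdg at 0.716 CPM in 1 of the 4 in vivo RFP+ libraries stood apart from the other 3, which were at 0, with a gap equal to the whole range of the group. It is 1 read, and 1 read beside 3 libraries at 0 gives such a gap by construction. The gap was examined for 16 pairs of a member and an in vivo population that had any range; the rate of about 1 in 20 groups that chance gives holds for continuous values and not for this gene.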

How the results depend on the processing

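Of 411 member fold changes under an alternative, 349 kept their direction and side of the threshold, 26 lost the call, 15 gained it and 21 turned direction, and all 36 mean CPM moved by less than 1 SD with total counts. The 1 member called in vivo became 0 at an adjusted p under 0.05 and 0 with the gene length trend removed, and ranged from 0 to 1 without 1 library. In GFP+ cells, in vitro against in vivo, the 7 members called became 2 with group weights in limma. The difference between sources, with 0 called, ranged from 0 to 1 without 1 library and reached 6 in the joint fit. The cause was not tested in any of these.

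Every value that turned direction was uncalled before and after. In vivo, group weights in limma gave Dnmt1 0.14, Tet1 2.26, Tet2 0.43 and Tet3 1.27, and Tet1 was at 0.25 with the length trend removed. Leaving out 1 in vivo library in turn, Uhrf1 ranged from -0.63 (without C12) to 0.0081 (without D12), Tet1 from -0.56 to 0.54 (without C12) and Tet2 from -0.76 to 0.16 (without E12). In GFP+ cells, group weights gave Tet3 2.35. In RFP+ cells, in vitro against in vivo, removing the length trend gave Dnmt1 -0.016, Dnmt3a -0.17 and Tet2 -0.093, and leaving out 1 library gave ranges of -0.14 to 0.019 for Uhrf1, -0.078 to 0.23 for Dnmt3a and -0.032 to 0.49 for Tet2, each turning without G12 and Tet2 also without H11. The Tet1 difference between sources ranged from -0.89 to 0.21 and turned without A12, B12, D12 or H11. Depth limits Dnmt3l and Tdg above all. No paired analysis was possible because the groups compared share no replicate numbers.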

Other observations

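Dnmt3l varied between wells of one population together with Dppa5a, a gene of naive pluripotent cells that was chosen here after its values were seen. Over 37 in vitro GFP+ wells without C9, log2 CPM of both gave Pearson r = 0.68 and Spearman rho = 0.75, and r = 0.64 without the 2 wells farthest from the median of Dppa5a. Over 46 in vitro RFP+ wells, where Dnmt3l had reads in 10 wells and Dppa5a in 19, the values were r = 0.71 and rho = 0.33. Dppa5a ran from 2.55 to 1217 CPM with a median of 50.4 CPM in the 38 GFP+ wells and from 0 to 356 CPM with a median of 0 in RFP+ wells. In vivo it had no reads in GFP+ libraries and a mean of 0.537 ± 0.358 CPM (SD, n = 4) in RFP+ libraries. Dnmt3l did not go with log2 total count (r = 0.00 in GFP+ and 0.07 in RFP+ wells). By plate column, its medians in GFP+ wells lay between 5.54 and 24.4 CPM.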
